A study of Mus musculus with 6 samples.

Results

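The serotonin receptors are described here across 6 Agilent SurePrint G3 mouse arrays of RNA from obese mice, 3 labelled GSK-J4 and 3 labelled vehicle. The receptor genes are Htr1a, Htr1b, Htr1d, Htr2a, Htr2c, Htr4, Htr5a, Htr5b, Htr6 and Htr7, and their probes are all those that carry one of these symbols as gene name in the scanner files. This gave 16 probes for 10 genes, out of 56605 probes and 37074 gene names on the array. All animals were male C57BL/6J DIO mice, that is, mice in which obesity was induced by feeding a diet with 60 kcal% fat, started at the age of 6 weeks and kept for 16 weeks. The GSK-J4 group received 30 mg/kg of GSK-J4, an inhibitor of the demethylases Kdm6a and Kdm6b that remove the repressive mark H3k27me3, and the vehicle group received a dose of 0, with a different mouse for each array. The labels name the tissue as hypothalamus, and it was taken at ZT 6 h, ZT being the time since lights on. The series text places the arrays 4 d after exposure, while the methods of the study describe daily injections for 21 d, so the length of treatment behind these arrays is uncertain. The question that the comparison addresses is which receptor transcripts differ between treated and control mice.

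Serotonin is released in the forebrain by axons of the raphe nuclei of the brainstem and acts there mostly through G protein-coupled receptors. The products of Htr4, Htr6 and Htr7 couple to Gs and raise cyclic AMP, those of Htr2a and Htr2c couple to Gq and activate phospholipase C, and those of Htr1a, Htr1b and Htr1d couple to Gi/o, lower cyclic AMP and open potassium channels. Htr5a and Htr5b encode the least studied branch of the family, which is linked to Gi/o. In the hypothalamus serotonin is known for restraining food intake, chiefly through the 5-HT2C receptor on Pomc neurons and the 5-HT1B receptor on Agrp neurons.

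The results for Htr7 and Htr2c turn on which probe of the gene is read, so the probes of both genes are shown. Each sequence is the stretch from base 31 to base 60 of the 60-base probe, written 5′ to 3′ with G and C in capitals, because base composition bears on the values given further on. Coordinates were taken from the scanner files (mm9) and cover the whole probe. The Htr7 probes lie on the minus strand at chr19:36034764-36034823 (A_51_P101065, transcript NM_008315), chr19:36033339-36033398 (A_55_P2100103, the same transcript) and chr19:36038872-36038931 (A_55_P2177309, transcript XM_006526701). The Htr2c probes lie on the plus strand at chrX:143631655-143631714 (A_55_P1977503, transcript NM_008312) and chrX:143511858-143511917 (A_52_P164255, transcript ENSMUST00000131999).
Htr7 A_51_P101065: aCCattGGCtGaGaCtGCaCaaCaGaaCtt
Htr7 A_55_P2100103: aGaGtGaaCGtatataCttatattCataat
Htr7 A_55_P2177309: aGGGataaaaGCtGtGaattCtGttGCaCt
Htr2c A_55_P1977503: GtaatttttCtCCtttGtCaaatGGtaCtt
Htr2c A_52_P164255: GaCaatGaaaatattaCtaaaataGtatCt
The first Htr7 stretch holds 14 G or C among 30 bases and the second 7, and over the whole probe their GC contents were 45% and 35%. Both Htr7 probes for NM_008315 and the first Htr2c probe gave signal on every array, whereas the third Htr7 probe and the second Htr2c probe were not well above background on any.

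The raw signal was brighter in the vehicle group, with a 75th percentile of 787 to 916 against 406 to 461 in the GSK-J4 group, and 62.8% to 63.6% of its probes were well above background against 57.7% to 58.7%. The groups lie on separate slides, with 0 of 2 slides holding both, so an effect of the slide and one of the treatment cannot be told apart here. The labelled tissue was checked by its markers. Of 8 hypothalamic marker genes, Oxt, Hcrt and Pomc were well above background on all 6 arrays, Agrp on 5, Avp and Pmch on 3, and the transcription factors Sim1 and Nkx2-1, which define hypothalamic cell groups, on 0. Oxt and Hcrt had mean log2 signals of 4.76 to 5.79 in the groups, beside a median of 5.75 over all probes of each array. Pomc had means of 7.94 in the vehicle group and 8.80 in the GSK-J4 group. Summed linear signals were 375 to 796 for the hypothalamic markers, 1818 to 2100 for thalamic markers and 6165 to 9837 for striatal ones. Probes of these lists may differ in how well they bind. The data therefore go against the tissue label in part, and the levels below are those of the tissue labelled hypothalamus. In such whole tissue, fewer cells of a type and less RNA per cell cannot be told apart. Signals are the normalized log2 values deposited by the authors, a change is the GSK-J4 mean minus the vehicle mean, and levels of different receptor probes are not set against each other, since probes differ in how well they bind.

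Htr7 was higher in the GSK-J4 mice on 1 of its probes, and no other receptor probe was called (limma, Benjamini-Hochberg adjusted p up to 0.05). A probe was tested when the 3 arrays of either group all showed it well above background, which 34443 probes of the array and 10 of the 16 receptor probes were. These 10 probes stand for 8 genes and were well above background on all 6 arrays, while the other 6 probes were on 0 arrays, which leaves Htr1d and Htr5a without a measurable signal. Among the 10 probes 1 was called higher, beside 8.39% of all probes tested. The number called lower was 0, beside 8.42% of all probes, although 1 receptor probe was lower and 2 were higher at an unadjusted limma p of at most 0.05. The methods' t-test with Benjamini-Hochberg adjustment called 0 receptor probes in either direction, beside 56 higher and 37 lower among all 34443 probes. By its unadjusted p 1 receptor probe was higher. At a fold change of at least 1.5 with an unadjusted limma p of at most 0.05, the thresholds of the methods, 1 receptor probe was higher, again Htr7, and 0 were lower, beside 4.79% and 7.86% of all probes tested. All 3 GSK-J4 arrays lay above all 3 vehicle arrays for 1 receptor probe and below them for 1, beside 24.5% and 21.2% of all probes tested.

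**Figure D1:**
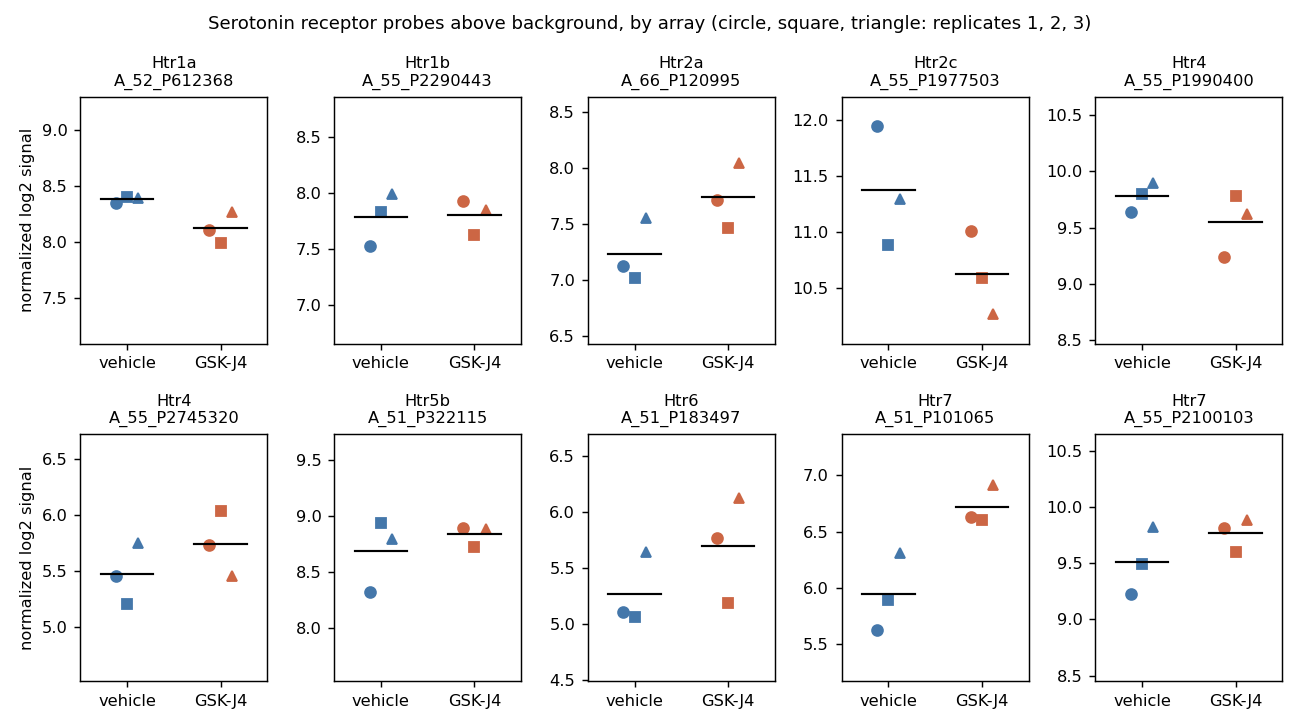
Normalized log2 signal (y axis) of the 10 receptor probes that were well above background, with 1 point per array, circles, squares and triangles for replicates 1, 2 and 3, and the group mean as a bar. All panels span the same number of log2 units. The groups do not overlap for Htr1a, where the GSK-J4 arrays are lower, and for the Htr7 probe A_51_P101065, where they are higher.

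Among the Gs-coupled receptors, Htr7 encodes the 5-HT7 receptor, known for its part in circadian phase shifts and body temperature. On probe A_51_P101065 the vehicle arrays read 5.63, 5.89 and 6.31 and the GSK-J4 arrays 6.63, 6.60 and 6.91, so every treated mouse lay above every control. The means were 5.94 ± 0.34 and 6.71 ± 0.17 (SD, n = 3 each), a change of 0.77 (SE 0.19, limma adjusted p = 0.0476) or 1.71-fold, with an exact permutation p of 0.1, the smallest that 3 arrays against 3 can give. Leaving out any 1 of the 6 arrays gave limma adjusted p-values of 0.0701 to 0.137, at changes of 0.62 to 0.96, and the change was 0.38 (limma adjusted p = 0.0413) with normexp background correction. It missed the threshold with 75th percentile scaling (0.65, limma adjusted p = 0.0602), with no filter on dim probes (limma adjusted p = 0.0837) and in the methods' t-test (adjusted p = 0.17). Over all probes tested, the calls higher numbered 1 to 2 with a vehicle array left out and 973 to 2075 with a GSK-J4 array left out. In the methods' t-test they numbered 56.

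The brighter Htr7 probe, A_55_P2100103, lies downstream on the same transcript record. It read 9.22, 9.49 and 9.83 on the vehicle arrays and 9.82, 9.61 and 9.88 on the GSK-J4 arrays, so the groups overlapped. The change was 0.25 (SE 0.17, limma adjusted p = 0.33, 95% interval -0.17 to 0.68, exact permutation p = 0.3). The difference between both Htr7 probes within an array was -3.60, -3.60 and -3.52 in the vehicle group and -3.19, -3.00 and -2.97 in the GSK-J4 group. It did not overlap between the groups and was smaller in size by 0.52 with GSK-J4 (exact permutation p = 0.1, the smallest possible). In the deposited values the probes of 1 gene thus changed unequally, but the size of this inequality depended on the processing. With normexp background correction the changes were 0.38 for A_51_P101065 and 0.25 for A_55_P2100103. With 75th percentile scaling they were 0.65 and 0.28. The third Htr7 probe, for a predicted transcript, ranged from 1.87 to 2.96 and was not well above background.

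Htr4, which encodes a receptor tied to feeding and memory circuits, has a pair of probes on NM_008313 whose values moved in opposite directions. Probe A_55_P1990400 (chr18:62627259-62627318, plus strand) read 9.64, 9.80 and 9.89 in the vehicle group and 9.24, 9.78 and 9.62 in the GSK-J4 group, with a change of -0.23 (SE 0.16, limma adjusted p = 0.344). The other probe, A_55_P2745320 (chr18:62587736-62587795, plus strand), had a change of 0.27 (SE 0.20, limma adjusted p = 0.371) between 5.48 ± 0.27 and 5.74 ± 0.29 (SD, n = 3 each). The groups overlapped on both probes, and the difference between the probes within an array shifted by 0.50 (exact permutation p = 0.2). As for Htr7, the brighter probe has 35% GC and the dimmer one 45%, and the dimmer one has the higher change.

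Htr6 encodes a receptor found almost only in the brain and concentrated in striatum and cortex. Its probe A_51_P183497 (NM_021358, chr4:138617683-138617742, minus strand) read 5.11, 5.07 and 5.64 in the vehicle group and 5.77, 5.19 and 6.13 in the GSK-J4 group. GSK-J4 replicate 2 lay inside the vehicle range, and the change was 0.42 (SE 0.28, limma adjusted p = 0.319, 95% interval -0.27 to 1.11). A further Htr6 probe, A_55_P2028350, was well above background on 0 arrays and therefore has no measured difference, although its values of 3.81 to 3.91 in the vehicle group and 2.48 to 2.90 in the GSK-J4 group did not overlap.

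**Figure D2:**
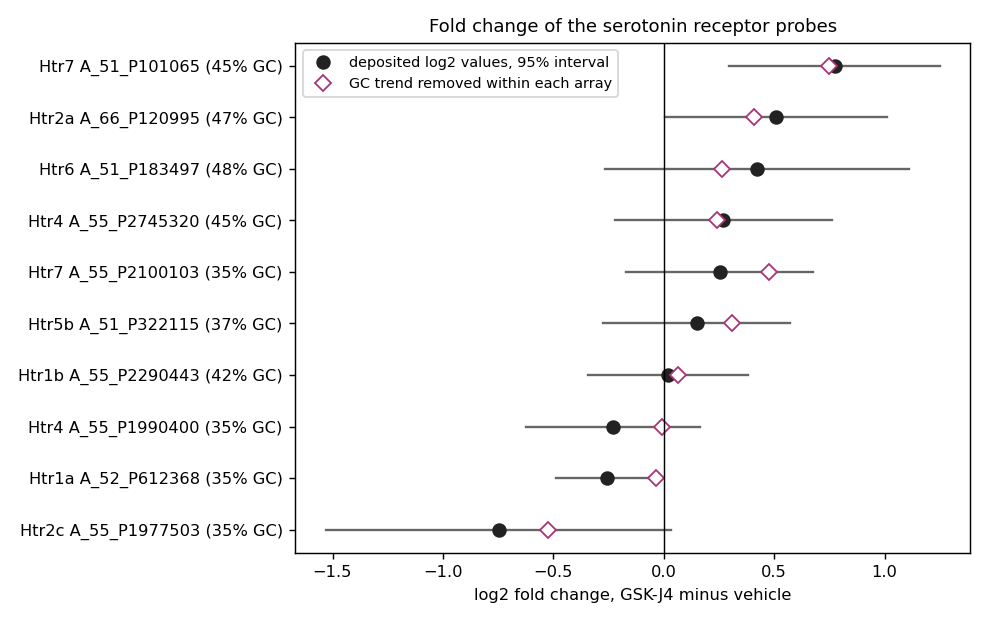
Change in log2 signal (x axis, GSK-J4 minus vehicle) of the 10 tested receptor probes with its 95% interval from limma (filled points and lines), and the change once the GC trend of each array had been taken out (open diamonds); the GC content of each probe stands beside its name. The interval leaves out 0 for Htr7 A_51_P101065, Htr2a and Htr1a, and the diamonds of Htr1a and Htr4 A_55_P1990400 lie near 0, at -0.036 and -0.0063.

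Of the Gq-coupled receptors, Htr2a encodes the main cortical target of serotonergic hallucinogens. Its single probe, A_66_P120995 (NM_172812, chr14:75106454-75106513, plus strand), read 7.13, 7.02 and 7.55 in the vehicle group and 7.72, 7.46 and 8.05 in the GSK-J4 group. The means were 7.23 ± 0.28 and 7.74 ± 0.29 (SD, n = 3 each), and only GSK-J4 replicate 2 fell below the highest vehicle array. The change of 0.51 (SE 0.20, 95% interval 0.007 to 1.01), or 1.42-fold, did not pass (limma adjusted p = 0.133, exact permutation p = 0.2). With normexp background correction it was 0.37 and passed (limma adjusted p = 0.0421).

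Htr2c encodes the receptor through which serotonin acts on Pomc neurons, and its RNA is edited by enzymes of the ADAR family. Probe A_55_P1977503 read 11.94, 10.88 and 11.30 in the vehicle group and 11.01, 10.59 and 10.27 in the GSK-J4 group. The means were 11.37 ± 0.53 and 10.63 ± 0.37 (SD, n = 3 each). The change of -0.75 (SE 0.32, 95% interval -1.53 to 0.034, limma adjusted p = 0.15, exact permutation p = 0.2) was the largest decrease among the receptor probes tested and did not pass. Vehicle replicate 1 stood above the other 5 arrays, and without it the change was -0.46 (limma adjusted p = 0.292). The other Htr2c probe ranged from 2.10 to 3.49 and was not well above background.

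Htr2c is also among the most abundant receptor transcripts of the choroid plexus, the epithelium of the ventricles, so a list of 10 choroid plexus markers was set beside it. The same vehicle replicate 1 carried these markers far above the other arrays. Their summed signal on the linear scale was 117992 on that array, 3386 and 3589 on the other vehicle arrays, and 12822, 3149 and 6050 on the GSK-J4 arrays. Ttr, the transthyretin gene that dominates choroid plexus RNA, read 16.15 on vehicle replicate 1, 13.24 on GSK-J4 replicate 1 and 12.03 on GSK-J4 replicate 3, and 10.42 to 10.85 on the others. Of the 10 markers 8 were tested and 0 were called in either direction (limma), 7 were well above background on all 6 arrays, and the median change was -1.07. The array highest in Htr2c was thus the array highest in these markers. GSK-J4 replicate 3, the lowest in Htr2c, was not the lowest in their summed signal. Among the single markers, Kl and Cldn2 were lowest on that array and the others were not. The part of choroid plexus RNA in the Htr2c values was not tested.

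**Figure D3:**
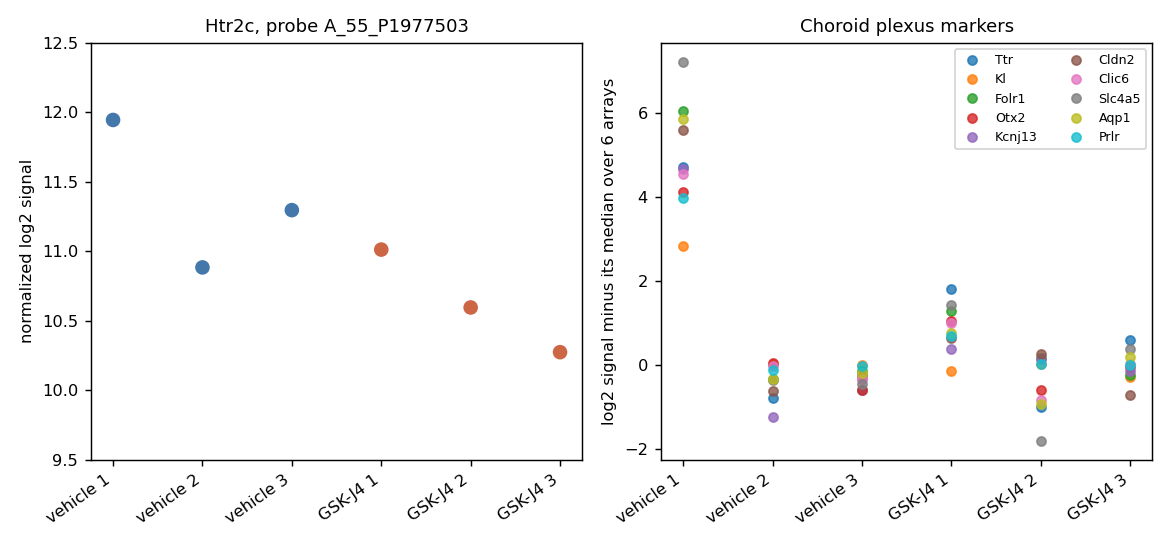
Left, normalized log2 signal of Htr2c (y axis) on each array (x axis), on an axis that starts at 9.5. Right, log2 signal of 10 choroid plexus markers minus the median of each over the 6 arrays; all 10 are highest on vehicle replicate 1, the array with the highest Htr2c signal at 11.94.

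Of the Gi/o-coupled receptors, Htr1a encodes the somatodendritic autoreceptor of raphe neurons, which is also abundant postsynaptically in the hippocampus. Its single probe, A_52_P612368 (NM_008308, chr13:106237236-106237295, plus strand), read 8.35, 8.40 and 8.39 in the vehicle group and 8.11, 7.99 and 8.27 in the GSK-J4 group, so every treated mouse lay below every control. The means were 8.38 ± 0.03 and 8.12 ± 0.14 (SD, n = 3 each). The change of -0.26 (SE 0.09, 95% interval -0.49 to -0.030, exact permutation p = 0.1, the smallest possible) did not pass over all probes tested (limma adjusted p = 0.106). With the trend on GC content removed, as explained further on, it was -0.036 (limma adjusted p = 0.826).

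Htr1b encodes a terminal autoreceptor and heteroreceptor that limits transmitter release. Its tested probe, A_55_P2290443 (ENSMUST00000183482, chr9:81522512-81522571, minus strand), read 7.53, 7.83 and 7.99 in the vehicle group and 7.92, 7.63 and 7.85 in the GSK-J4 group. The GSK-J4 values lay inside the vehicle range, with a change of 0.018 (SE 0.15, limma adjusted p = 0.94) and a 95% interval of -0.35 to 0.38. The probe for the RefSeq record NM_010482, A_52_P103998, was not well above background and ranged from 2.24 to 3.22. A reading of Htr1b here thus rests on the Ensembl transcript alone.

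Htr5b, which is functional in mice and lost in humans, had a change of 0.15 (SE 0.17, limma adjusted p = 0.561, 95% interval -0.27 to 0.57) on probe A_51_P322115 (NM_010483, chr1:123406629-123406688, minus strand). The vehicle arrays read 8.32, 8.94 and 8.80 and the GSK-J4 arrays 8.90, 8.73 and 8.88, all of the latter within the vehicle range. The single probes of Htr1d (A_55_P2019428) and Htr5a (A_55_P2087345) ranged from 1.90 to 2.99 and from 1.90 to 3.21, not well above background, so no difference in Htr1d or Htr5a could be measured.

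Of the 10 receptor probes tested 7 had a change above 0, and the median change was 0.20 (range -0.75 to 0.77), beside a median of 0.0245 and 52.7% above 0 over all 34443 probes tested. The direction followed the base composition of the probe across the whole array. The 7890 tested probes of no more than 35% GC had a median change of -0.16, with 31.1% above 0, and the 15262 of at least 45% GC a median of 0.15, with 67.9% above 0. All 3 receptor probes with a change below 0 (Htr1a, Htr2c and Htr4 A_55_P1990400) have 35% GC, and the 4 with the largest changes above 0 (Htr7 A_51_P101065, Htr2a, Htr6 and Htr4 A_55_P2745320) have at least 45%. The brighter Htr7 probe stands apart from this order, with 35% GC and a change above 0. So does Htr5b, with 36.7% GC and a change of 0.15, beside a median of -0.0845 over all tested probes of that GC content.

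When a lowess trend of signal on GC content was taken out of each array, the Htr7 probes came closer to each other. Probe A_51_P101065 then had a change of 0.75 (limma adjusted p = 0.0575) and probe A_55_P2100103 one of 0.48 (limma adjusted p = 0.118). The change of Htr5b became 0.31 (limma adjusted p = 0.257), that of Htr6 0.26 (limma adjusted p = 0.538) and that of Htr2c -0.53 (limma adjusted p = 0.298), and the signs of all 10 were kept. No receptor probe was called after this step, beside 2200 higher and 1829 lower calls over all probes tested. The part of GC content in these differences was not tested beyond this.

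**Figure D4:**
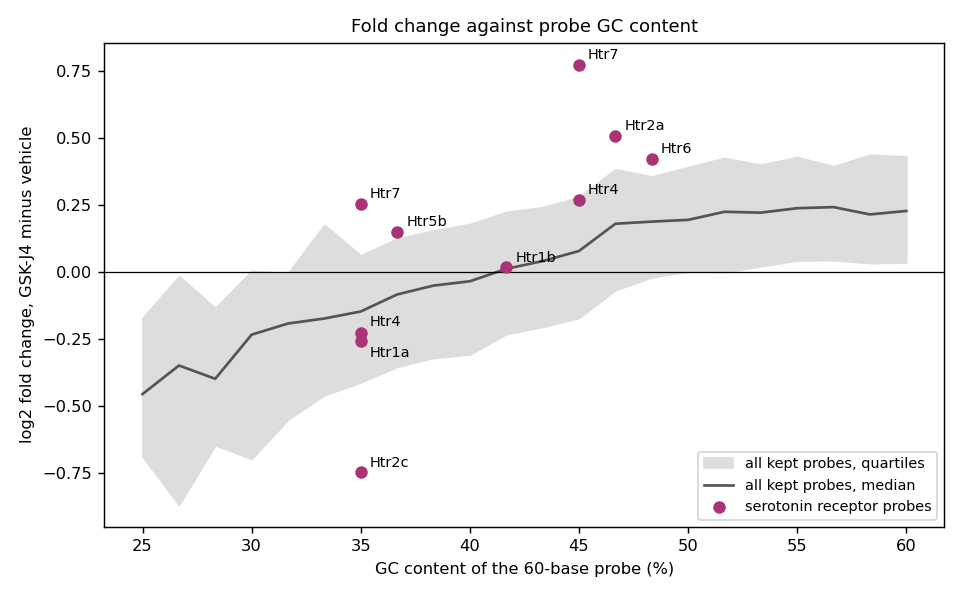
Change in log2 signal (y axis, GSK-J4 minus vehicle) against the GC content of the 60-base probe (x axis, percent); the line is the median and the band the quartiles of all tested probes of that GC content, and the 10 points are the receptor probes. The line rises from -0.15 at 35% GC to 0.19 at 48.3% GC. Both Htr7 points and those of Htr2a, Htr5b and Htr6 lie above the band, and that of Htr2c lies below it.

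The remaining genes of the serotonin system were taken from lists, with 1 probe per gene, and read beside 22117 genes of the array, of which 8.6% were called higher and 7.56% lower and whose median change was 0.036. Of 4 other receptor genes 2 were measured. Htr3a, which encodes a subunit of the ion channel among serotonin receptors, had a change of 0.35 (SE 0.27, limma adjusted p = 0.377), and Htr1f, another Gi/o-coupled receptor, one of -0.28 (SE 0.15, limma adjusted p = 0.224). Htr2b and Htr3b were well above background on 0 arrays. Of 8 genes of serotonin synthesis, transport and breakdown 5 were measured, 0 were called in either direction by limma or by the methods' t-test, 0 had an unadjusted p of at most 0.05 by either, and the median change was 0.15. Tph2, the rate-limiting enzyme of serotonin synthesis in neurons, read 4.90 to 5.44 in the vehicle group and 5.12 to 5.52 in the GSK-J4 group. Maob, which breaks down monoamines and is abundant in astrocytes, had a change of 0.22 (SE 0.09, limma adjusted p = 0.148). It read 10.54 to 10.69 in the vehicle group and 10.74 to 10.96 in the GSK-J4 group. Slc6a4, the serotonin transporter, and Fev, the factor that specifies serotonin neurons, were well above background on 0 arrays.

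All 19 genes of receptor signalling were measured, with 1 called higher, 4 called lower and a median change of 0.15. Kcnj6 and Kcnj3 encode subunits of the potassium channels that Gi/o-coupled receptors open, and both fell. Kcnj9, another such subunit gene on the list, had a change of 0.31 in the other direction (SE 0.22, limma adjusted p = 0.361). Kcnj6 read 8.29, 8.04 and 8.13 in the vehicle group and 7.24, 7.49 and 7.24 in the GSK-J4 group, a change of -0.83 (SE 0.11, limma adjusted p = 0.0165) that was -0.81 (limma adjusted p = 0.0225) with the GC trend removed. Kcnj3 fell by 0.34 (SE 0.07, limma adjusted p = 0.0359), and its change was -0.12 (limma adjusted p = 0.337) with that trend removed. Kcnj3 has 2 probes on the array and Kcnj9 has 3, and only the brightest tested probe of each gene was read. The G protein subunit genes Gna11, of the Gq class, and Gnai1, of the Gi class, fell by 0.33 (limma adjusted p = 0.041) and 0.31 (limma adjusted p = 0.0415). With the GC trend removed they had changes of -0.10 and -0.086 and did not pass. With 75th percentile scaling the changes of Gna11, Gnai1 and Kcnj3 were -0.14, -0.072 and -0.27 (limma adjusted p = 0.222, 0.534 and 0.0526), and none of these passed. Arrb1, a beta-arrestin that turns receptors off, rose by 0.38 (SE 0.10, limma adjusted p = 0.0496). Its change was 0.66 (limma adjusted p = 0.016) with 75th percentile scaling and 0.35 (limma adjusted p = 0.0675) with the GC trend removed.

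All 6 partners that edit or hold the receptors were measured, with 0 called higher, 2 called lower and a median change of -0.14. Mpdz, the multi-PDZ scaffold that binds the tail of the 5-HT2C receptor, fell by 0.53 (SE 0.10, limma adjusted p = 0.0266), and Adarb2, an ADAR family member with no known editing activity, fell by 0.58 (SE 0.14, limma adjusted p = 0.0471). Both probes have 35% GC, and with the GC trend removed their changes were -0.31 (limma adjusted p = 0.0821) and -0.36 (limma adjusted p = 0.138). The array holds 6 probes for Mpdz and 3 for Adarb2, and only the brightest tested probe of each gene was read. Adar, an enzyme that edits Htr2c RNA, had a change of -0.27 (limma adjusted p = 0.0768), and Adarb1, the other active editing enzyme, one of -0.004 (SE 0.08, limma adjusted p = 0.976).

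A list of 6 genes was taken for the arcuate feeding neurons, on which the 5-HT2C and 5-HT1B receptors act. Of these genes 5 were measured, 2 were called higher and 0 lower, and all 5 had a change above 0, with a median of 0.42. Over all genes measured, 54.2% had a change above 0. Pomc, the precursor of the satiety peptide alpha-MSH, rose by 0.85 (SE 0.14, limma adjusted p = 0.022), and Npy, which drives feeding, rose by 0.42 (SE 0.08, limma adjusted p = 0.0267). Agrp had a change of 0.10 (limma adjusted p = 0.806). Which cells of the tissue gave the signal of the listed genes was not tested. Pomc and Npy have probes of 55% and 50% GC, and with the GC trend removed their changes were 0.64 (limma adjusted p = 0.04) and 0.24 (limma adjusted p = 0.0893). Without Pomc, the summed linear signal of the other 7 hypothalamic markers was 118 to 187 in the vehicle group and 157 to 266 in the GSK-J4 group, and the groups overlapped. Of the 8 hypothalamic markers 4 were tested, and all 4 had a change above 0, with a median of 0.45. Pomc and Agrp are among these 4 and also on the arcuate list. Hcrt read 4.72 to 4.82 in the vehicle group and 5.10 to 5.98 in the GSK-J4 group, a change of 0.805 (limma adjusted p = 0.0586). The part of hypothalamic tissue content in these changes was not tested. None of the genes called in the signalling, partner and arcuate lists passed when any 1 vehicle array was left out (limma adjusted p = 0.0595 to 0.136), in the methods' t-test (adjusted p = 0.0758 to 0.193) or with the replicate number as a block (limma adjusted p = 0.0802 to 0.123). Few of the 34443 probes tested passed in these settings. With a vehicle array left out, 1 to 2 were called higher and 4 to 12 lower. The methods' t-test called 56 and 37, and the replicate block 0 and 0. Kcnj6 and Mpdz still passed without any 1 of the GSK-J4 arrays.

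For receptors whose brightest tested probe spanned at least 1 log2 unit over the 6 arrays, the most alike probes of other gene names were those with the smallest root mean square difference of centred log2 values over the same 6 arrays. For Htr2c, which spanned 1.67, the nearest was A330076C08Rik (0.142), followed by probes A_30_P01032743 (0.175) and A_30_P01030652 (0.179) for noncoding regions. For Htr2a, which spanned 1.02, they were Cbx8 (0.0700), Stox1 (0.0707) and probe A_30_P01026599 (0.0784). For Htr6, which spanned 1.06, they were Gm35959 (0.0714), ENSMUST00000065740 (0.0892) and probe A_30_P01020886 (0.0952). These are descriptions over 6 arrays, among 34443 probes that share slide and group. The Htr7 probe A_51_P101065 spanned 1.29 but is not the brightest of its gene, and it was not compared in this way.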

How the data were processed

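Total RNA was labelled in a single colour (Cy3) and hybridized by the authors, who deposited spot intensities with detection flags from Agilent Feature Extraction 10.7.1.1 and a table of log2 values, per the methods quantile normalized in GeneSpring. The deposited log2 table was used, since it holds 56745 rows whose 6 sorted columns differ by at most 0.00424 and correlate with the log2 intensity of their own array at 0.9992 to 0.9996. The intensities served for detection flags and alternatives. Control probes were left out. The 34443 probes that the 3 arrays of either group all showed well above background were fitted with lmFit and eBayes of limma 3.58.1 in R 4.3.3, with no covariate and Benjamini-Hochberg adjustment over all of them. Tests were two-sided. The exact permutation test enumerated the 20 orders of 3 arrays against 3.

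The receptors and lists were chosen with earlier results of these data known. Every receptor probe was accounted for, with values on each array for the brightest tested probe of a gene and for probes past a threshold. From the lists, genes with an adjusted p up to 0.05 were named, at most 4 per list by the smallest p. Arrb1, the single signalling gene called higher, and Kcnj9, named beside Kcnj6 and Kcnj3, were added after their values were seen. Others were named where a sentence on a receptor turned on them, and Htr1f, Htr3a, Tph2, Maob, Slc6a4, Fev, Htr2b, Htr3b, Adar, Adarb1 and Agrp are of this second kind. Ttr and the tissue markers come from marker lists for choroid plexus, neurons, astrocytes, oligodendrocytes, microglia, endothelium and brain regions. Of 5 thalamic markers 4 were tested and 1 was called, Tnnt1, with a change of 0.66 (SE 0.14, limma adjusted p = 0.0339), of 5 striatal markers 3 were tested and 0 called, of 6 pituitary markers 1 was tested and 0 called, and of 3 raphe markers 1, Tph2, was tested and 0 called. Another region list is not reported here. Summed linear signals in the vehicle and GSK-J4 groups were 209426 to 218487 and 201791 to 236486 for neurons, 35594 to 37674 and 37912 to 40471 for astrocytes, 119414 to 140988 and 122625 to 127405 for oligodendrocytes, 31661 to 33500 and 25188 to 36989 for microglia, and 10851 to 13830 and 10599 to 15213 for endothelium. Of these only the astrocyte sums did not overlap between the groups, being higher with GSK-J4. Of the 6 astrocyte markers 3 had a change above 0 and 0 were called. The part of astrocyte content in the changes above was not tested. The GC trend was a lowess with a span of 30%, fitted in each array to the deviations from the probe means over the 6 arrays. The number of arrays limits the precision. Correlations of arrays within a group were 0.978 to 0.995, and no 2 arrays were identical. Exon annotation on mm9 was not used here, and promoters were not analysed, since no readout here bears on them.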

Additional observations from a re-analysis of the deposited data

How the results depend on the processing

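The count of receptor probes called higher was 1 and that called lower 0 (limma, adjusted p up to 0.05). The same counts were found with quantile normalized scanner signal and with probes well above background on all 6 arrays. The count higher was 2 (Htr7 and Htr2a) with normexp (offset 50), and 0 with 75th percentile scaling, with no filter on dim probes, with the methods' t-test, with the GC trend removed and with 1 probe per gene, which leaves out the Htr7 probe in question. It was 0 to 0 when any 1 array was left out. The count lower was 1 with no filter, for the Htr6 probe that was well above background on 0 arrays. At the thresholds of the methods the counts were 1 higher and 0 lower. The count higher was 0 with normexp and with 1 probe per gene, and 1 to 3 with each array left out (2 without vehicle replicate 3, and 3 without GSK-J4 replicate 2, where Htr2a and Htr6 joined Htr7). The count lower was 1 with normexp, 2 with no filter, and 0 to 1 with each array left out, where Htr2c passed without vehicle replicate 2 or GSK-J4 replicate 1.

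The replicate numbers of the labels did not pair the arrays (correlations of deviations between same-numbered arrays 0.0073, 0.0256 and 0.0807). With the replicate block the count called higher was 0 and that past the methods' thresholds lower was 1 (Htr2c), and the Htr7 change of 0.77 had a limma adjusted p of 0.0802.

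Over all probes tested, 2889 were called higher and 2899 lower, against 5036 and 3635 with 75th percentile scaling, 1793 and 1972 with no filter, 56 and 37 with the methods' t-test, 0 and 0 with the replicate block, 1 to 2 and 4 to 12 with a vehicle array left out, and 973 to 2075 and 1429 to 2481 with a GSK-J4 array left out. Of single receptor changes only those of Htr1b and Htr5b changed sign. Htr1b was -0.0925 with 75th percentile scaling and, with 1 array left out, -0.109 to 0.12, below 0 without vehicle replicate 1, GSK-J4 replicate 1 or GSK-J4 replicate 3. Htr5b was -0.0313 to 0.274 with 1 array left out, below 0 without vehicle replicate 1. The causes were not tested.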
